A study of Mus musculus with 59 samples.

Results

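The 7 genes described here belong to neurotrophin signalling in the brain. They are the ligands Bdnf and Ntf3, the receptors Ntrk2, Ntrk3 and Ngfr, the sorting receptor Sort1 and the secreted protein precursor Vgf. They were taken by symbol from a table of normalized counts with 18088 genes, and all 7 were present. Every one of them had a mean normalized count of at least 10, the level required for testing, which 16599 genes reached. The table comes from RNA sequencing of mouse prefrontal cortex in 59 libraries.

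The mice were of the C57BL/6J strain and were either wild type (WT) or carried 1 copy of a knock-in allele of Shank3 (heterozygous, HT). The names of the data columns begin with L68P in both genotypes. The Shank3 protein is a scaffold of excitatory synapses. The pups received vehicle, fluoxetine (a serotonin reuptake inhibitor) or lithium (a mood stabiliser) through their mothers' milk for 3 weeks, from postnatal day 3 to 24, and tissue was taken on day 25. Both sexes were used, which gives 12 groups of genotype, drug and sex, 11 with 5 libraries and WT lithium females with 4. The 6 arms of genotype and drug therefore hold 10 libraries each, or 9 for WT lithium. The dose reached by a pup, the vehicle's make-up and the litters are not given in the labels, so pups of a litter enter the tests as if independent. A gene count does not tell the alleles apart, so the genotype labels were not checked here.

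Brain-derived neurotrophic factor, the product of Bdnf, is released by neurons in an activity-dependent manner and binds TrkB, the product of Ntrk2. Neurotrophin 3, from Ntf3, binds TrkC, the product of Ntrk3, and both Trk kinases start the ERK, PI3 kinase and phospholipase C cascades. The p75 receptor, from Ngfr, binds all neurotrophins and, together with sortilin from Sort1, their uncleaved precursors. Vgf encodes a precursor of secreted peptides that is induced by BDNF and neuronal activity. In cortex, BDNF and TrkB are known for their part in synapse growth and plasticity and in the response to antidepressant drugs.

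Library depth was 22984556 to 35969254 reads, and libraries of a group correlated at 0.962 to 0.990. Markers of cortical excitatory and inhibitory neurons were present in every library. The 9 libraries that stood apart had high markers of neighbouring tissue or an unusual mitochondrial share. Of these, 6 had an olfactory bulb index above 2.5, the index being the mean over 8 bulb neuron markers of each marker's level divided by its mean over all libraries. They were WT fluoxetine females 1, 2 and 4, HT vehicle males 4 and 5 and HT lithium female 4. The other 3 were HT vehicle female 1 with choroid plexus markers, WT lithium female 2 with striatal markers and HT lithium female 5 with a mitochondrial share of 2.70%. None of the 8 bulb markers was at 0 in every library, and their summed count ran from 563 to 23025. Results that rest on these libraries are given with and without them. The bulb index is continuous, and HT vehicle male 5, at 2.55, lay just above the cut of 2.5. HT vehicle female 1 and HT fluoxetine male 5, both at 2.48, and WT lithium female 1, at 2.46, lay just below it. In bulk tissue, fewer cells of a type and less RNA per cell cannot be told apart.

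Bdnf (ENSMUSG00000048482, chr2:109674700-109727007, plus strand, GRCm38) had a mean normalized count of 951, with libraries from 509 to 1527. The gene uses alternative first exons, each with its own promoter, joined to a shared coding exon. RefSeq lists 7 Bdnf start sites in the promoter table (GRCm38.p6), and a gene count sums the transcripts of all of them. Start 3 is the promoter known as promoter IV, which is studied for its response to neuronal activity through CREB. The 250 bases before start 3 and, for comparison, before the most upstream start are shown, together with those before the start of Ntrk2, a receptor that rose with lithium. Capitals mark a variant cAMP response element, TCACGTCA.

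Bdnf start 3, chr2:109692186-109692435, plus strand: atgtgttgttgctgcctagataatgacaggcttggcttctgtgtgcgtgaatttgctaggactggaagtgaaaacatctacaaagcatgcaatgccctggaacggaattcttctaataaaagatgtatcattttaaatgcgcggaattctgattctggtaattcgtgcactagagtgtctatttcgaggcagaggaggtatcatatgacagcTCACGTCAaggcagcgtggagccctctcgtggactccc

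Bdnf start 1, chr2:109674450-109674699, plus strand: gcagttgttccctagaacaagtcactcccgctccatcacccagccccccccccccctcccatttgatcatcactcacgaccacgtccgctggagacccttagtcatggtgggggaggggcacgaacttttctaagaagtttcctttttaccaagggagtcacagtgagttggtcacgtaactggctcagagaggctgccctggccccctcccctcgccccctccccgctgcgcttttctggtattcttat

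Ntrk2 start 1, chr13:58806319-58806568, plus strand: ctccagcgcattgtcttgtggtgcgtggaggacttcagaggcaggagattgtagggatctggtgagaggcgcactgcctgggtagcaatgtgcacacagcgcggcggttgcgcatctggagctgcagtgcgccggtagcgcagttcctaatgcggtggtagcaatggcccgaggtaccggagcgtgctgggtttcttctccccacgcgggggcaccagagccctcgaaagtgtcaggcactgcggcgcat

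The motifs searched, on both strands of the 250 bases before each start, were the cAMP response element TGACGTCA, its variant TCACGTCA, the short element TGACG and the E-box CACGTG. Every match of the full element or of the variant also holds the short element. Of 32851 RefSeq windows, 1.55% held the full element, 0.35% the variant, 17.8% the short element and 6.02% the E-box. The 4 genes with windows, Bdnf, Ntf3, Ntrk2 and Ngfr, had 11 between them, and none held the full element. The variant was found in 1 of the 11, 38 bases before Bdnf start 3, where the short element overlaps it. The E-box was found in 1, 231 bases before Ntf3 start 1. Ntrk3, Sort1 and Vgf were not in the promoter table.

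Ntf3 (ENSMUSG00000049107, chr6:126101412-126166910, minus strand) was scarce, with a mean normalized count of 21.4 and 8 to 38 reads a library. Ntrk2 (ENSMUSG00000055254, chr13:58806569-59133970, plus strand) had a mean of 20186 and Ntrk3 (ENSMUSG00000059146, chr7:78175959-78738012, minus strand) a mean of 6274. Both receptor genes also make truncated forms without the kinase domain, and gene counts do not separate them from the full-length forms. Ngfr (ENSMUSG00000000120, chr11:95568818-95587735, minus strand) was at 32.2, with 10 to 72 reads a library, so that counting error is large for it and for Ntf3. Sort1 (ENSMUSG00000068747, chr3:108284082-108361511, plus strand) had a mean of 16208 and Vgf (ENSMUSG00000037428, chr5:137026392-137033351, plus strand) a mean of 4700. Coordinates are those of the whole genes on GRCm38.

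Per kilobase of merged exon the mean normalized count was highest for Sort1 at 2141, followed by Vgf at 1581, Ntrk2 at 1046, Ntrk3 at 208, Bdnf at 153, Ntf3 at 12.5 and Ngfr at 9.35. Per kilobase of the gene's median transcript, the same counts put Ntrk2 first at 6999 and Ntrk3 next at 6335, ahead of Sort1 at 2385, Vgf at 1946 and Bdnf at 244. The order of the receptors against Sort1 and Vgf thus depends on the length used. Bdnf stood above Ntf3 and Ngfr on both scales. Within a group, the coefficient of variation of the normalized count was 5.42% for Ntrk2, 9.55% for Ntrk3, 10.6% for Sort1, 18.2% for Bdnf and 19.4% for Vgf. It was larger for the scarce Ntf3 and Ngfr, at 33.7% and 39.8%. Among the abundant members the spread was thus widest for Bdnf and Vgf.

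Lithium was compared with vehicle in each genotype to show how the drug moved these genes. In HT mice, Vgf, Ntrk2 and Ntrk3 rose with lithium, Vgf by 1.67-fold and the receptors by 1.09-fold and 1.12-fold. None of the 7 fell. The background was large, since 20.3% of all genes tested passed the adjusted p of 0.05 in this comparison, 10.9% as higher and 9.43% as lower. The 3 of 7 must be read against that share.

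Vgf had a normalized count of 2912 (lowest), 3619 (median) and 4318 (highest) in the 10 HT vehicle libraries and of 4589, 5919 and 7392 in the 10 HT lithium libraries. The lowest lithium library lay above the highest vehicle library, so the arms did not overlap. Only 0.494% of all genes were higher without overlap in this comparison. The log2 difference was 0.74 ± 0.12 (SE; limma adjusted p = 2.2e-05), with a 95% interval of 0.49 to 0.98. It was 0.61 in females (adjusted p = 0.014) and 0.87 in males (adjusted p = 0.0028). Without the 9 libraries that stood apart it was 0.64 (adjusted p = 6.9e-04).

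Fold changes followed the GC content of the genes in this comparison, with a Spearman rho of 0.47 across genes, which are not independent replicates. Vgf has a GC content of 64.8% and Bdnf one of 40.5%. With the GC trend removed, the Vgf difference was 0.53 ± 0.11 (adjusted p = 6.5e-04) and the Bdnf difference was 0.44 (adjusted p = 0.011). All 5 HT lithium male libraries were also deep, at 32046303 to 35969254 reads, and the part of depth was not tested.

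Ntrk2 had a normalized count of 16864, 18908 and 21654 (lowest, median, highest) with vehicle and of 19646, 21066 and 21726 with lithium in HT mice. The arms overlapped, although all 10 lithium libraries lay above the vehicle median. The log2 difference was 0.13 ± 0.04 (adjusted p = 0.015) and was 0.11 (adjusted p = 0.071) without the 9 libraries. It also missed the threshold without HT vehicle male 5 alone, at 0.11 (adjusted p = 0.054). By sex it was 0.20 in females (adjusted p = 0.014) and 0.06 in males (adjusted p = 0.50). The sexes' difference of 0.14 ± 0.08 did not pass (adjusted p = 0.35). Ntrk3 had 5276, 5854 and 6688 with vehicle and 4660, 6790 and 7585 with lithium. Here 5 of 10 lithium libraries lay above every vehicle library and 1, the lowest of all, below every vehicle library. The difference of 0.17 ± 0.06 passed narrowly (adjusted p = 0.049). It passed in neither sex alone, at 0.17 in females (adjusted p = 0.22) and 0.16 in males (adjusted p = 0.21). It held in 7 of 20 fits that each left out 1 library, with values from 0.14 to 0.22 and adjusted p up to 0.11. The libraries whose omission ended the Ntrk3 call were HT lithium females 1 to 4, HT lithium males 1, 2 and 5, HT vehicle females 1, 3 and 5 and HT vehicle males 1, 4 and 5.

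Bdnf itself had 692, 957 and 1108 with vehicle and 792, 1153 and 1527 with lithium in HT mice. Of the 10 lithium libraries, 6 lay above every vehicle library, and the remaining 4 lay within the vehicle range. The log2 difference of 0.29 ± 0.12 missed the threshold (adjusted p = 0.083). It was 0.07 in females and 0.52 in males, where it passed (adjusted p = 0.046), but the sexes' difference of -0.45 ± 0.24 did not (adjusted p = 0.33, against 0.012% of all genes called, all lower). Without the 9 libraries that stood apart Bdnf also passed, at 0.32 (adjusted p = 0.041), and likewise without HT lithium female 5 or without HT vehicle male 3 alone, at 0.34. Ntf3, Ngfr and Sort1 gave log2 differences of 0.14 ± 0.22, 0.23 ± 0.24 and 0.02 ± 0.07. Each of these intervals included 0. Ngfr was 0.47 ± 0.17 with the bulb index as covariate, where it passed (adjusted p = 0.034), and 0.57 ± 0.25 without the 9 libraries that stood apart, where it did not (adjusted p = 0.13). Over 13 settings other than the omission of 1 library or 1 sex, Vgf was called in 13, Ntrk2 in 9, Ntrk3 in 7 and Bdnf in 3.

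Some cell type markers were called in the same comparison, in which 20.3% of all genes were called, 10.9% as higher and 9.43% as lower. The counts of single lists are small and are to be read against the share of the same direction. Of 5 upper cortical layer markers 2 were higher with lithium in HT mice, of 5 oligodendrocyte precursor markers 2, of 6 astrocyte markers 2 and of 5 microglia markers 2. Endothelium, mural cells and inhibitory neurons had 1 higher marker each, and the deep cortical layers had 1 lower. The summed upper layer count was 13292 to 17741 in HT vehicle and 14552 to 19133 in HT lithium libraries. The 5 excitatory neuron markers had a median log2 difference of 0.15 with none called, and their summed count was 128380 to 199836 against 149268 to 221252. The bulb index had a median of 0.71 with vehicle and of 0.21 with lithium. The part of cell composition in the Vgf, Ntrk2 and Ntrk3 differences was not tested.

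**Figure D1:**
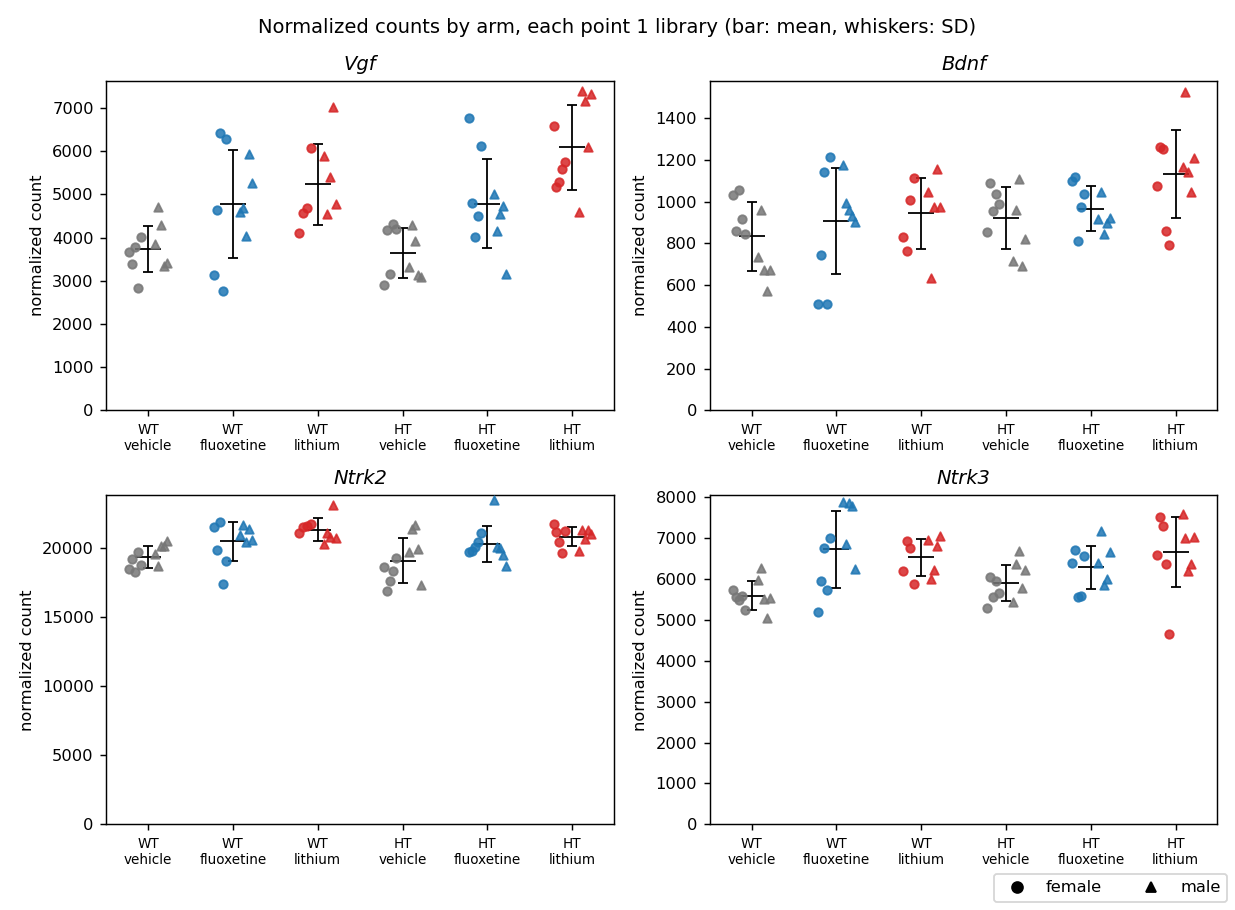
Normalized counts of Vgf, Bdnf, Ntrk2 and Ntrk3 on linear axes that start at 0, by arm of genotype and drug. Each point is 1 library (circles female, triangles male), the bar is the mean and the whiskers the SD. The HT lithium libraries of Vgf, from 4589 to 7392, lie above all HT vehicle libraries, while the arms overlap for the other genes.

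In WT mice the same 3 genes rose with lithium, and again none fell. The share of all genes called was 12.8%, with 7.66% higher and 5.11% lower. Vgf had 2841, 3724 and 4703 with vehicle and 4116, 4766 and 7015 with lithium. All 9 lithium libraries lay above the vehicle median and 5 above every vehicle library, so the arms overlapped. The log2 difference was 0.47 ± 0.13 (adjusted p = 0.0088), and 0.48 (adjusted p = 0.0026) without the libraries that stood apart. It passed in neither sex alone, at 0.45 in females (adjusted p = 0.13) and 0.49 in males (adjusted p = 0.11).

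Ntrk2 had 18261, 19361 and 20501 with vehicle and 20240, 21062 and 23099 with lithium in WT mice. All but 1 of the 9 lithium libraries lay above every vehicle library. The difference was 0.14 ± 0.04 (adjusted p = 0.017). It missed the threshold with quantile normalization at 0.14 (adjusted p = 0.078) and with the length trend removed at 0.11 (adjusted p = 0.078). By sex it was 0.19 in females (adjusted p = 0.045) and 0.095 in males (adjusted p = 0.42). The sexes' difference of 0.09 ± 0.08 did not pass (adjusted p = 0.83). Ntrk3 had 5045, 5543 and 6276 with vehicle and 5864, 6757 and 7052 with lithium, a difference of 0.22 ± 0.06 (adjusted p = 0.016). Of the 9 lithium libraries, 5 lay above every vehicle library for Ntrk3. The Ntrk3 difference was 0.22 in each sex and passed in neither alone (adjusted p = 0.15 in females and 0.17 in males). All 3 calls held in each of 19 fits that left out 1 library. Bdnf differed by 0.18 ± 0.13 (adjusted p = 0.37), by -0.03 in females and 0.40 in males, and the sexes' difference of -0.43 ± 0.25 did not pass (adjusted p = 0.67). Ntf3 at -0.20 ± 0.23, Ngfr at 0.09 ± 0.25 and Sort1 at -0.01 ± 0.07 did not pass. In this comparison 2 of 5 endothelial markers, 1 of 5 microglia markers and 1 of 7 markers of mural cells and fibroblasts were lower. No marker of the other lists was called, and 5.11% of all genes were lower. The summed count was 3876 to 5263 with vehicle and 3937 to 5588 with lithium for endothelium, 5091 to 7010 and 4637 to 6226 for microglia, and 4966 to 7411 and 4881 to 7115 for mural cells and fibroblasts. Their part in the Vgf, Ntrk2 and Ntrk3 differences was not tested. Fold changes did not follow GC content here, with a Spearman rho of 0.0005 across genes.

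Whether lithium acted differently in the 2 genotypes was tested directly as an interaction. No member passed, and 0.00602% of all genes did. The Vgf response was larger in HT than in WT mice by 0.27 ± 0.18 (adjusted p = 0.55), with an interval of -0.09 to 0.62. Fold changes of the interaction followed GC content at a Spearman rho of 0.51 across genes, and with the GC trend removed the Vgf value was 0.02 ± 0.15 (adjusted p = 0.99). For Bdnf the difference was 0.11 ± 0.17, for Ntrk2 -0.01 ± 0.06 and for Ntrk3 -0.05 ± 0.09. At an unadjusted p of 0.05 the interaction had 2020 genes, and edgeR called 2 genes and DESeq2 34.

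Fluoxetine was compared with vehicle in the same way, and it uses the same vehicle libraries as the lithium comparison. In WT mice Ntrk3 was the only member called, against 5.66% of all genes (3.54% higher and 2.11% lower). Ntrk3 had 5045, 5543 and 6276 with vehicle and 5194, 6804 and 7885 with fluoxetine. Of the 10 fluoxetine libraries, 6 lay above every vehicle library, and the arms overlapped. The log2 difference was 0.26 ± 0.06 (adjusted p = 0.0086), which held in all 20 fits that left out 1 library. It was 0.37 in males (adjusted p = 0.023) and 0.14 in females (adjusted p = 0.29), and the sexes' difference of -0.23 ± 0.12 did not pass (adjusted p = 0.24).

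Vgf had 2774, 4661 and 6421 with fluoxetine in WT mice, and 4 of 10 libraries lay above every vehicle library and 1 below. The difference of 0.32 ± 0.12 did not pass (adjusted p = 0.11). It passed without WT fluoxetine female 1 or without WT fluoxetine female 4, and the values over all omissions ran from 0.25 to 0.40. Ntf3 had 13.7, 24.4 and 35.5 with vehicle and 9.07, 18.5 and 27.4 with fluoxetine. Its difference of -0.50 ± 0.22 did not pass (adjusted p = 0.17), while in females alone Ntf3 fell by 0.96 (adjusted p = 0.032). In males Ntf3 was at -0.05 (adjusted p = 0.96), and the sexes' difference of -0.91 ± 0.44 did not pass (adjusted p = 0.18). Of the 5 fluoxetine females 3 had a high bulb index, and without the high-bulb libraries the difference over both sexes was -0.38 ± 0.24 (adjusted p = 0.33). With the bulb index as covariate Ntf3 passed as lower, at -0.60 ± 0.20 (adjusted p = 0.029). Bdnf at 0.09 ± 0.12, Ntrk2 at 0.08 ± 0.04, Ngfr at -0.12 ± 0.24 and Sort1 at 0.04 ± 0.07 did not pass.

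Without the 6 libraries of high bulb index, 4 of the 7 genes were higher with fluoxetine in WT mice. Of all 16599 genes, 1530 were called in that fit, 960 of them as higher. The log2 differences were then 0.59 ± 0.12 for Vgf (adjusted p = 0.0017), 0.40 ± 0.11 for Bdnf (adjusted p = 0.019), 0.22 ± 0.06 for Sort1 (adjusted p = 0.017) and 0.34 ± 0.07 for Ntrk3 (adjusted p = 0.0017). The WT fluoxetine arm then holds 2 females and 5 males, while the WT vehicle arm loses 0 libraries. The same 4 genes were called without all 9 libraries that stood apart. Of 13 settings other than the omission of 1 library or 1 sex, these 2 alone called Bdnf or Sort1. With the bulb index as covariate Sort1 was at -0.012. In the full comparison 4 of 7 markers of myelinating oligodendrocytes were lower with fluoxetine, with a median of -0.65, against 2.11% of all genes. Their summed count was 83175 to 246433 with vehicle and 52198 to 169171 with fluoxetine, and its part in the Ntrk3 difference was not tested.

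In HT mice no member passed with fluoxetine, and 0.277% of all genes did (0.205% higher and 0.0723% lower). Vgf came nearest, with 3157, 4640 and 6774 against the vehicle values of 2912, 3619 and 4318. Of 10 fluoxetine libraries, 7 lay above every vehicle library and 1 lay below the vehicle median. The difference was 0.38 ± 0.12 (adjusted p = 0.16), with an unadjusted p of 0.0034. The other members ran from -0.08 ± 0.24 for Ngfr to 0.32 ± 0.22 for Ntf3, with Bdnf at 0.08 ± 0.12. Ntrk2 was at 0.09 ± 0.04, with an interval of 0.01 to 0.17 (limma unadjusted p = 0.027, adjusted p = 0.34). In this comparison 1933 genes had an unadjusted p under 0.05, and edgeR called 75 and DESeq2 198. No member passed the genotype by fluoxetine interaction, for which no gene did in limma, edgeR or DESeq2, with 844 genes at an unadjusted p under 0.05. Ntf3 had the largest difference there, 0.83 ± 0.31 (adjusted p = 0.95).

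**Figure D2:**
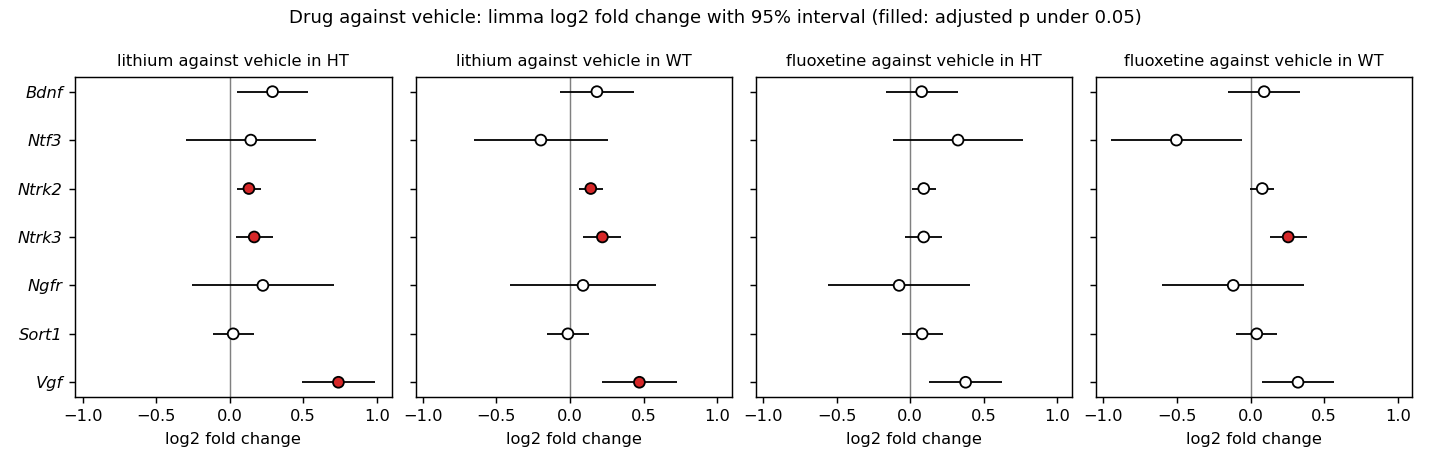
Log2 fold change of each of the 7 genes with drug against vehicle, in 4 panels for lithium and fluoxetine in HT and WT mice. Points are limma estimates, lines the 95% intervals, and filled points passed the adjusted p of 0.05. Vgf lies to the right of 0 in every panel, from 0.32 to 0.74, and is filled in the lithium panels only.

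Over the arms, mean normalized counts of Vgf were 6093 ± 986 (SD, n = 10) in HT lithium, 5228 ± 936 (n = 9) in WT lithium, 4778 ± 1031 (n = 10) in HT fluoxetine, 4775 ± 1243 (n = 10) in WT fluoxetine, 3727 ± 531 (n = 10) in WT vehicle and 3648 ± 577 (n = 10) in HT vehicle. Each step in this order was smaller than the larger SD of the arms beside it. Bdnf ran from 1133 ± 209 in HT lithium through 967 ± 106 in HT fluoxetine, 945 ± 170 in WT lithium, 922 ± 147 in HT vehicle and 908 ± 253 in WT fluoxetine to 833 ± 164 in WT vehicle. Again each step was smaller than the larger SD of the arms beside it. The widest SD of Bdnf was that of WT fluoxetine.

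That spread lay in the females. The 5 WT fluoxetine females had Bdnf counts of 509, 742, 1140, 512 and 1216, and the 5 WT vehicle females 1034, 858, 1057, 919 and 846. Females 1, 2 and 4 of the fluoxetine group were below every vehicle female and females 3 and 5 above every one. The WT fluoxetine males had 1177, 991, 962, 931 and 903 and the WT vehicle males 736, 961, 674, 573 and 672. All fluoxetine males lay above the other 4 vehicle males, and the vehicle male at 961 lay among them.

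The Bdnf difference with fluoxetine in WT mice was -0.29 in females (adjusted p = 0.27) and 0.47 in males (adjusted p = 0.14). Neither passed. The sexes' difference was -0.76 ± 0.24 (adjusted p = 0.041). Bdnf was the only member to pass, against 8.66% of all genes called (3.58% higher and 5.08% lower). The 3 low females are the high-bulb libraries, with indices of 3.85, 2.60 and 4.25 against 0.11 and 0.090 in the other 2 females. Without the 6 high-bulb libraries the difference was -0.15 ± 0.22 (adjusted p = 0.80). It was also lost on leaving out 13 of the 20 libraries singly, with values from -0.93 to -0.61 and adjusted p up to 0.11. Those were WT fluoxetine females 1, 2 and 4, WT fluoxetine males 1 to 3, WT vehicle females 1, 3 and 4 and WT vehicle males 1, 3, 4 and 5. With edgeR on the recovered reads it was -0.65 (adjusted p = 0.077), and with the GC trend removed -0.49 (adjusted p = 0.31). The corresponding difference in HT mice was -0.10 ± 0.24.

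The 6 high-bulb libraries, which lie in the WT fluoxetine, HT vehicle and HT lithium arms only, were also set beside the other 53 libraries of all arms. The ranges of the 2 sets overlapped for every member. In the 6 high-bulb libraries Bdnf was 509 to 860 with a median of 717, against 573 to 1527 with a median of 976 in the other 53. Sort1 was 11860 to 14304 with a median of 13931, against 12979 to 19722 with a median of 16450. Vgf was 2774 to 5575 with a median of 3127, against 2841 to 7392 with a median of 4589. Ntf3 had medians of 11.9 against 21.4. Ngfr went the other way, with 36.4 to 72.5 and a median of 51.8, against 10.8 to 58.3 and a median of 27.6. Ntrk2 had medians of 19741 and 20421 and Ntrk3 of 5860 and 6276. These values describe the libraries and carry no test, since the 6 are not a group of the study. The 2 sets also differ in their mix of drugs and genotypes, which cannot be told apart from the index here.

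**Figure D3:**
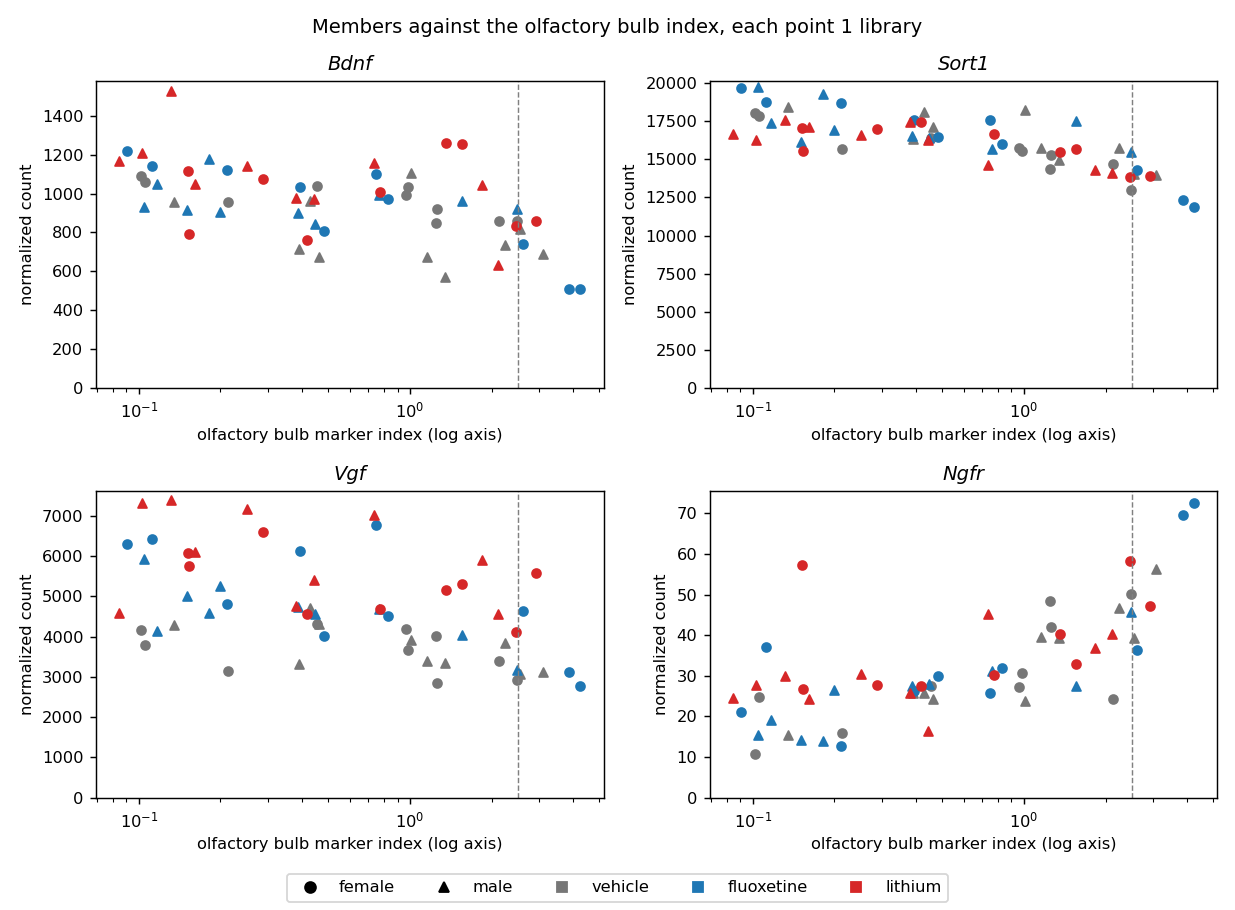
Normalized counts of Bdnf, Sort1, Vgf and Ngfr (linear axes from 0) against the olfactory bulb marker index (log axis), with each point 1 library, colour for drug and shape for sex. Libraries right of the dashed line at 2.5 have Sort1 between 11860 and 14304 and Ngfr between 36.4 and 72.5.

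**Figure D4:**
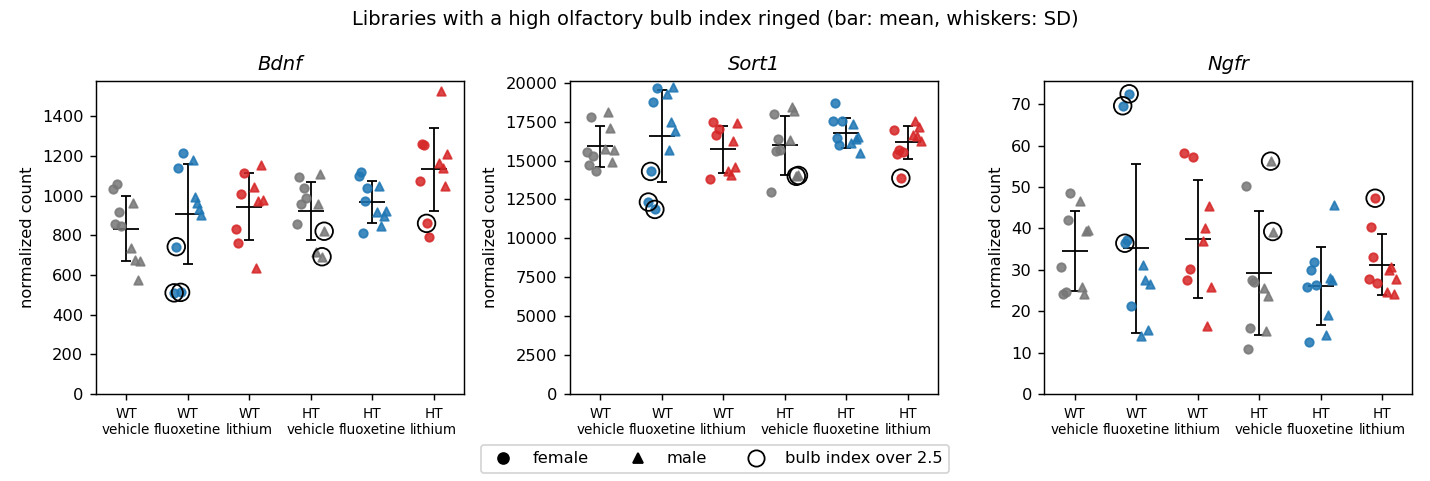
Normalized counts of Bdnf, Sort1 and Ngfr by arm, with each point 1 library, mean and SD as bars, and the 6 libraries with a bulb index over 2.5 ringed. In WT fluoxetine the ringed females hold the 3 lowest Bdnf counts, 509, 512 and 742, and the unringed libraries reach 1216.

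HT and WT mice were compared within each treatment, and no member passed in any of the 3 comparisons. No gene at all passed with limma, while 1074 genes under vehicle, 1883 under fluoxetine and 1839 under lithium had an unadjusted p under 0.05. Under vehicle edgeR called 0 and DESeq2 6 genes, under fluoxetine 1 and 19, and under lithium 0 and 37. With limma other settings did call genes, namely 491 under fluoxetine in females alone, 106 under vehicle in males alone, 56 under fluoxetine with the bulb covariate and up to 112 under fluoxetine with 1 library left out. Under vehicle Bdnf was at 573, 852 and 1057 in WT and 692, 957 and 1108 in HT mice, a log2 difference of 0.16 ± 0.12. Its interval of -0.09 to 0.40 included 0. Vgf differed by -0.03 ± 0.12 and Ntrk2 by -0.02 ± 0.04. Under lithium Bdnf was higher in HT mice by 0.26 ± 0.13 (adjusted p = 0.43) and Vgf by 0.23 ± 0.13 (adjusted p = 0.50). Averaged over the arms, no member passed between females and males, against 0.217% of all genes. Ntrk3 had the smallest limma p, with -0.10 ± 0.04 in females (unadjusted p = 0.0099, adjusted p = 0.32). Its interval of -0.17 to -0.02 did not include 0.

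Over the 59 libraries, after subtraction of group means, Bdnf and Vgf deviated together, with a Pearson r of 0.64 (permutation p = 9.0e-05) and a Spearman rho of 0.54 (permutation p = 2.5e-04). This was 1 relation, tested with 100000 resamples. The permutation tests only against no shared deviation at all, so it cannot show a relation particular to these 2 genes. Without the 2 libraries farthest in Bdnf r was 0.56, and it was 0.56 over the 50 libraries that did not stand apart. Bdnf also went with Sort1 at 0.71 and Ntrk3 at 0.69, as descriptions of libraries that share depth and dissection. Ngfr went against Sort1 at -0.77, and Ntrk2 correlated with no other member above 0.34.

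The genes most like each member in these deviations were Pdp1 (r = 0.86), Spred3 (0.85) and Kcnv1 (0.85) for Bdnf and Clstn3 (0.86), Slc6a17 (0.83) and Mast3 (0.83) for Vgf. For Ntrk3 they were Nlk (0.86), Cacnb4 (0.85) and Man1a2 (0.84), and for Sort1 Rbfox1 (0.96), D430041D05Rik (0.95) and Tbc1d30 (0.95). Ngfr was nearest to Patj (0.82), Tulp3 (0.80) and Fgfr1 (0.80). Ntrk2, with Fam19a2 (0.64) and Bmpr1b (0.64), and Ntf3, with Cspg5 (0.67), Htatip2 (0.65) and St6galnac6 (0.64), had less close companions. All are Pearson correlations of log2 values over 59 libraries and are given without a test.

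The rest of the pathway was followed with 110 genes in 6 lists, of which 108 could be tested. With lithium 26 rose and 7 fell in HT mice, where 10.9% of all genes were higher and 9.43% lower. In WT mice 15 rose and 4 fell, against 7.66% and 5.11% of all genes. With fluoxetine 12 rose and 2 fell in WT mice, against 3.54% and 2.11%, and none passed in HT mice. The counts of the single lists are small and are to be read against the same shares. The counts for HT mice with lithium shrink where the processing or the libraries change. With the GC trend removed 24 genes were called, of which 17 were among the 33, and without the 9 libraries that stood apart 14 were called, 13 of them among the 33. With fluoxetine in WT mice 30 were called without those libraries, 11 of them among the 14.

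Among the other ligands and receptors, the list median with lithium in HT mice was 0.07 against 0.00 over all genes. Of 9 genes 3 rose, against 10.9% of all genes. They were Rtn4r, the Nogo receptor that can pair with p75 (0.42 ± 0.12), Sorl1 (0.25 ± 0.09) and Sorcs3 (0.20 ± 0.07), both of the sortilin family. Rtn4r and Sorl1 did not pass with the GC trend removed, none of the 3 passed without the libraries that stood apart, and Sorcs3 did not pass with edgeR (adjusted p = 0.060). None of the 9 passed with lithium in WT mice, and only Sorcs3 did with fluoxetine there, at 0.42 ± 0.07 (adjusted p = 4.3e-04). Ntf5, the second ligand of TrkB, was at 0 to 14.4 and was not tested.

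Of 18 genes for the processing and release of neurotrophins, 3 rose and 1 fell with lithium in HT mice, a share near the 20.3% of all genes called there. In WT mice 4 rose, against 12.8% of all genes called. The granins Chga (0.32 ± 0.10) and Chgb (0.26 ± 0.07), proteins of dense core vesicles, and Htt, which takes part in the transport of BDNF vesicles (0.17 ± 0.05), rose in HT mice. Serpini1, an inhibitor of tissue plasminogen activator, fell by 0.26 there. With the GC trend removed Serpini1 was at -0.08 (adjusted p = 0.50) and Chga at 0.19 (adjusted p = 0.11). Without the libraries that stood apart Chga at 0.17 (adjusted p = 0.23), Chgb at 0.13 (adjusted p = 0.16) and Htt at 0.10 (adjusted p = 0.21) did not pass. In WT mice lithium raised Plat, tissue plasminogen activator itself (0.32 ± 0.06), Htt (0.21 ± 0.05), Cadps, a vesicle priming factor (0.16 ± 0.05), and the proprotein convertase Furin (0.19 ± 0.07). With the length trend removed Cadps (adjusted p = 0.17) and Furin (adjusted p = 0.16) did not pass, nor did Furin with the GC trend removed (adjusted p = 0.069). Fluoxetine raised Plat (0.21 ± 0.06) and Htt (0.16 ± 0.05) in WT mice. Plat was lost without the libraries that stood apart, at 0.12 (adjusted p = 0.22), and Htt with the length trend removed (adjusted p = 0.074).

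Among the adaptors of Trk receptors, 6 of 21 rose and 1 fell with lithium in HT mice, against 20.3% of all genes called, and 3 rose in WT mice, against 12.8%. Shc3, a neuronal adaptor, had 861, 1129 and 1282 with vehicle and 1375, 1656 and 1942 with lithium in HT mice. These arms did not overlap, as was so for 0.494% of all genes that were higher with lithium in HT mice. The difference was 0.61 ± 0.09 (adjusted p = 6.6e-06). Irs2, which couples receptors to PI3 kinase, rose by 0.52 ± 0.08 in HT and 0.52 ± 0.09 in WT mice, and in WT mice its lithium libraries, at 1739 to 2443, lay above its vehicle libraries, at 1176 to 1709. In that comparison 0.542% of all genes were higher without overlap. Both genes passed in HT mice under each of 5 alternatives, namely edgeR, GC or length trend removed, bulb index as covariate, and without the libraries that stood apart. Plcg1, the phospholipase that binds activated TrkB, rose in 3 comparisons by 0.13 to 0.16, and missed the threshold in 1 of those alternatives for HT lithium. Sh2b1 rose in HT mice (0.18 ± 0.04) and lost the call with the GC trend removed (0.04) and without the libraries that stood apart (0.12), and Sos1 rose in WT mice (0.26 ± 0.05).

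The cytoplasmic kinases that were called moved in both directions. With lithium 1 of 26 rose and 3 fell in HT mice, against 20.3% of all genes called. In WT mice 3 rose and 2 fell, against 12.8%. The ERK gene Mapk3 fell by 0.20 in HT mice (adjusted p = 0.0039), and Akt2 rose by 0.24 ± 0.07 but did not pass with the GC trend removed (0.15, adjusted p = 0.16). In WT mice Mapk3 fell by 0.17 and Akt1 by 0.14, while Pik3r1 (0.18 ± 0.04) and Mtor (0.16 ± 0.05) were among the genes that rose. Mapk3 (adjusted p = 0.063) and Akt1 (adjusted p = 0.062) did not pass there with the length trend removed. Fluoxetine in WT mice lowered Nras by 0.19 and Map2k5 by 0.16 and raised Mtor by 0.18 ± 0.05. Without the libraries that stood apart Mtor was at 0.07 (adjusted p = 0.41) and Map2k5 at -0.08 (adjusted p = 0.24).

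Of 18 regulators of Bdnf transcription, 5 rose and 2 fell with lithium in HT mice, against 20.3% of all genes called, and 3 rose and 2 fell in WT mice, against 12.8%. Crebbp, a coactivator of CREB, rose with lithium in HT (0.21 ± 0.04) and WT mice (0.29 ± 0.05) and with fluoxetine in WT mice (0.24 ± 0.04). In WT mice its lithium libraries, at 2131 to 2591, lay above all vehicle libraries, at 1640 to 2060, as 0.542% of all genes did in that comparison. Mef2d rose with lithium in both genotypes, by 0.25 ± 0.05 and 0.19 ± 0.05, and Crtc1, another CREB coactivator, rose in HT mice by 0.25 ± 0.07. Rcor1, a partner of the repressor REST, rose with both drugs in WT mice, by 0.24 ± 0.05 with lithium and 0.32 ± 0.05 with fluoxetine. Hdac2, a histone deacetylase, fell by 0.20 in HT mice, and Usf2 fell by 0.14 in WT mice. With the GC trend removed Hdac2 was at -0.08 (adjusted p = 0.30) and Crtc1 at 0.13 (adjusted p = 0.12), and without the libraries that stood apart they were at -0.13 (adjusted p = 0.096) and 0.19 (adjusted p = 0.0502), neither of which passed. Creb1 itself and the activity-dependent factor Npas4 were not called in any drug comparison.

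Of 16 transcripts reported to follow BDNF or Trk to ERK signalling, 8 rose with lithium in HT mice, against 10.9% of all genes. The list median was 0.31 against 0.00 over all genes. In WT mice 2 of 16 rose with lithium, against 7.66% of all genes, and 3 with fluoxetine, against 3.54%. The ERK feedback inhibitor Spry4 had 240, 310 and 464 with vehicle and 294, 440 and 555 with lithium in HT mice. The arms overlapped, and the difference was 0.46 ± 0.11 (adjusted p = 0.0023). Spry2 rose there by 0.25 ± 0.08, the ETS factor Etv5 by 0.29 ± 0.07 and the immediate early gene Egr1 by 0.62 ± 0.20. Spry2 was lost without the libraries that stood apart (adjusted p = 0.071). Egr1 did not pass with the GC trend removed (adjusted p = 0.081) or without the libraries that stood apart (adjusted p = 0.18). Etv5 was called in lithium HT, lithium WT (0.33 ± 0.08) and fluoxetine WT (0.26 ± 0.07), while Spred1 rose with lithium in WT mice (0.30 ± 0.08). Fluoxetine in WT mice raised Nptx2 (0.57 ± 0.09) and Egr3 (0.67 ± 0.11), both neuronal activity-induced genes. Arc at 0.90 ± 0.37 and Fos at 0.35 ± 0.28 did not pass with lithium in HT mice.

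**Figure D5:**
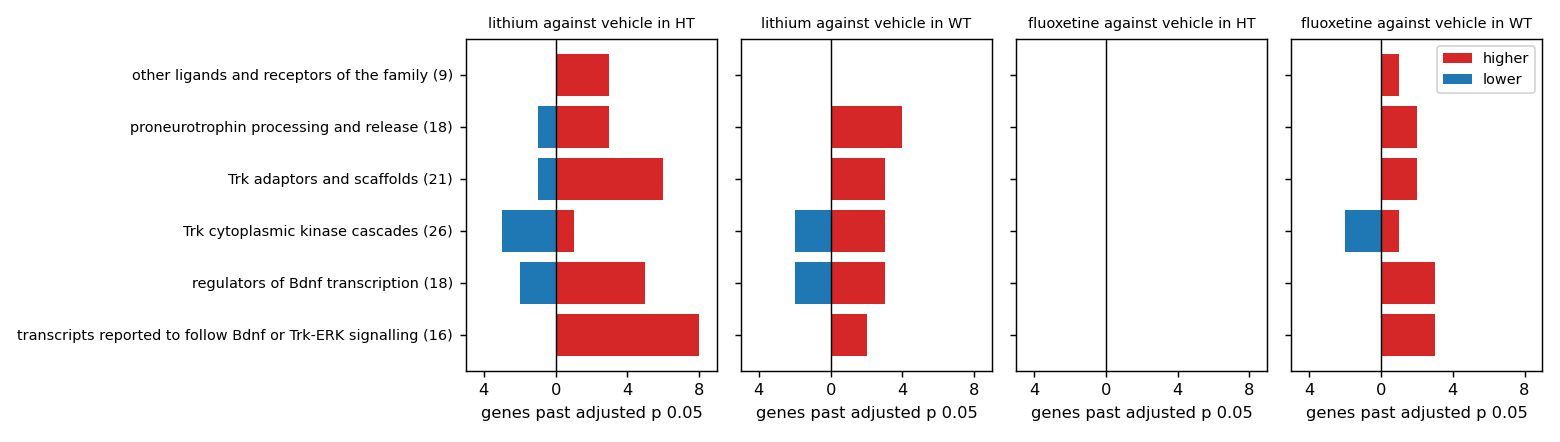
Number of genes past an adjusted p of 0.05 in 6 lists of the pathway, with higher to the right and lower to the left of 0, in 4 panels for the drug comparisons. The number tested stands after each list's name. The longest bar, 8 of 16 against 10.9% of all genes, is that of transcripts reported to follow Bdnf or Trk-ERK signalling with lithium in HT. The panel for fluoxetine in HT is empty.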

How the data were processed

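RNA was sequenced from prefrontal cortex in 59 libraries with a stranded mRNA kit, per the labels' protocols. The authors deposited normalized counts per Ensembl gene, a linear signal in which each library's counts are divided by a size factor. The submitters' processing notes name Salmon 0.11.2, R 3.6.0, DESeq2 1.19.11 and GRCm38, without their roles. Every column matched a sample's labels, and 0 columns were left unused. Symbols came from GENCODE M21 for 18077 of 18088 identifiers. Low values were whole multiples of 1 read, so whole reads were recovered for 100.0% of values within 0.001, with library sums of 22984556 to 35969254 reads.

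As the deposited unit is not raw counts, the main test was limma 3.58.1 (R 4.3.3) on log2(normalized count + 1), which understates changes of low genes. It used genes with a mean of at least 10, 12 group means, 47 residual degrees of freedom, a variance trend and robust empirical Bayes. Drug and genotype effects average the sexes. P-values are two-sided and Benjamini-Hochberg adjusted over all 16599 genes within each of 14 comparisons, called at 0.05. Nothing in the labels says whether libraries of a group come from separate litters, so p-values measure only the spread between these samples. The script was tested on simulated data.

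Alternatives were edgeR 4.0.16 and DESeq2 1.42.0 on the recovered reads, other pseudocounts (0.5, 5), quantile normalization, no filter, only the groups compared, each sex alone, GC or length trend removed, the bulb index as covariate, the replicate number as block and each library left out. Leaving out the libraries that stand apart (an index of bulb, choroid plexus or striatum markers over 2.5, or under 5% mitochondrial reads), or those of high bulb index, was chosen after seeing the data.

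The members, gene lists and markers were chosen with earlier results of these data known. Named were the 7 members, up to 4 called genes per list and drug comparison by smallest p, and the 3 genes nearest to each member, apart from a few genes that are not reported here. Ntf5, Creb1, Npas4, Arc and Fos were added after their values were seen.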

Additional observations from a re-analysis of the deposited data

Results flagged for a closer look

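In WT fluoxetine males, Ntf3 in male 4 had a normalized count of 27.4, apart from 18.0 to 20.6 in the other 4 males. In WT lithium males, Ntrk2 in male 4 had 23099, apart from 20240 to 21062 in the other 4. Each gap was large relative to the range of its group. Outliers were looked for in 84 groups of 4 or 5 libraries, and chance marks about 1 in 20 groups. The effect of fluoxetine on Bdnf in WT mice differed between the sexes by -0.76 ± 0.24 on the log2 scale (limma adjusted p = 0.041), and by -0.15 ± 0.22 (adjusted p = 0.80) without the 6 libraries of high bulb index, which include 3 of the 5 WT fluoxetine females.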

How the results depend on the processing

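Vgf kept its lithium call in HT mice under every alternative run, with log2 differences of 0.53 to 0.87. With lithium in WT mice the Vgf, Ntrk2 and Ntrk3 calls held with each library left out. Ntrk2 was lost with quantile normalization and with the length trend removed, and with the sexes apart 1 member was called in females and 0 in males. With lithium in HT mice the 3 members called became 1 with quantile normalization and 1 without the high-bulb libraries, 4 with the GC trend removed, which adds Bdnf, and 1 to 4 with a library left out. For fluoxetine in WT mice 1 became 2 with DESeq2, which adds Vgf, and with the bulb covariate, which adds Ntf3, 4 without the libraries that stood apart or of high bulb index, and 1 to 2 with a library left out. For sex by fluoxetine in WT mice 1 became 0 with edgeR, only the groups compared, the GC trend removed, or without either set of libraries, and 0 to 1 with a library left out.

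Signs turned only among differences that were not called, and the cause was not tested. For lithium in HT mice, Ntf3 was -0.083 in females, -0.14 without the libraries that stood apart and -0.057 without those of high bulb index. Ngfr was -0.092 in males. Sort1 was -0.050 with quantile normalization, -0.051 with the bulb covariate and without the libraries that stood apart, -0.018 in females, -0.023 without high bulb, -0.034 with the length trend removed and -0.010 to 0.049 with a library left out. For lithium in WT mice, Bdnf was -0.030 in females, Ntf3 0.092 in males, Ngfr -0.13 in males and Sort1 0.063 in females and -0.038 to 0.023 with a library left out. For fluoxetine in HT mice, Bdnf was -0.0027 and Sort1 -0.020 without the libraries that stood apart, and Ngfr was 0.061 in females, 0.068 with the bulb covariate, 0.28 and 0.15 without the sets of libraries and -0.20 to 0.060 with one left out. For fluoxetine in WT mice, Bdnf was -0.29 in females, Ngfr 0.38 in females, 0.056 with the bulb covariate and -0.21 to 0.0055 with a library left out, and Sort1 -0.042 in females, -0.017 with the length trend removed, -0.012 with the bulb covariate and -0.0065 to 0.085 with a library left out. For HT against WT under vehicle, Ntrk2 was 0.0099 in males, 0.0051 and 0.0097 without the sets of libraries and -0.039 to 0.00085 with a library left out. Sort1 was 0.011 with quantile normalization, 0.016 in females, 0.0037 with edgeR, 0.0049 with DESeq2, 0.0051 with the GC trend removed, 0.099 and 0.065 without the sets, and -0.026 to 0.033 with a library left out. Vgf was 0.074 in females, 0.075 with the GC trend removed, 0.069 and 0.026 without the sets and -0.072 to 0.0091 with a library left out.

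Over all genes, the 3374 calls for lithium in HT mice became 2000 with the GC trend removed, 1850 without the libraries that stood apart and 1924 and 1608 in females and males. The 2120 for lithium in WT mice became 3452 with the bulb covariate and 1196 and 437 by sex. The 939 for fluoxetine in WT mice became 424 with only the groups compared, 3102 with the bulb covariate, 2068 and 1530 without the sets, 2220 and 259 by sex and 477 to 1311 with a library left out. The 1438 for sex by fluoxetine in WT mice became 435 with only the groups compared, 3 with the GC trend removed, 2 without either set and 557 to 2849 with a library left out. The 46 for fluoxetine in HT mice ran from 0 to 198.

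Same-numbered libraries had a median correlation of deviations of -0.01 in 68 pairs, with 16 over 0.1. Libraries of other numbers had a median of -0.0004 in 272 pairs, with 77 over 0.1. These pooled values gave no sign that the numbers pair the samples, but they cannot exclude pairing within single comparisons. With the replicate number as block no member call changed, and Vgf with lithium in HT mice was 0.74. Depth limits Ntf3 and Ngfr, which had 8 to 72 reads a library.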
